A study of Mus musculus with 12 samples.

Results

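The cytosolic ribosomal protein genes encode the proteins of the ribosome that works outside mitochondria. They were selected on their names, their annotation and their measured counts, as the protein-coding rows of the deposited mouse gene table (mm10) whose symbol is Rpl or Rps and a number, with or without a closing a, l, l1 or x, together with Rplp0, Rplp1, Rplp2 and Rpsa, and which had at least 10 counts in at least 3 of the 12 libraries. The rule found 80 genes among the 45777 gene rows of the table, 49 of the large subunit and 31 of the small subunit. Of the 86 rows with such a symbol, Rps4l, Rpl6l and Rps12l1 were not annotated as protein coding. Rpl3l, Rpl10l and Rpl39l were protein coding and lay under the minimum: Rpl3l had at most 6 counts in a library, and Rpl10l and Rpl39l had 0 counts in every library, which allows up to 0.0665 CPM (counts scaled to a common library total) per library, from 3 counts of the library's total and for counting error only. Rpl32l lay just inside, with 6, 6 and 6 counts in the control siRNA vehicle libraries, 5, 4 and 12 with control siRNA and dDAVP, 8, 5 and 4 with TAZ siRNA and vehicle, and 12, 10 and 8 with TAZ siRNA and dDAVP. Its 3 libraries with at least 10 counts had all received dDAVP, so it met the rule through that treatment and its dDAVP changes are not read as a response. The rule used counts, so levels are a description here and were not tested.

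The libraries came from mpkCCDc11 cells, a mouse cortical collecting duct epithelial line labelled wild type. All cells were grown on permeable filters and kept in medium without serum or hormones before treatment. They received control siRNA or siRNA against TAZ, a transcriptional coactivator whose gene is Wwtr1. They then received vehicle or dDAVP, an agonist of the vasopressin V2 receptor, which was given at 1e-09 M on the basolateral side. The study asked how TAZ bears on aquaporin-2, the water channel that vasopressin regulates. The 4 groups were control siRNA with vehicle, control siRNA with dDAVP, TAZ siRNA with vehicle and TAZ siRNA with dDAVP, with 3 libraries each. No source used here ties an exposure time to these libraries. The labels do not say whether libraries of 1 group are from separate cultures, and p-values then reflect only their spread, which may be technical.

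Each library held 45095331 to 61725339 counts. Wwtr1 was at 179, 186 and 177 CPM with control siRNA and vehicle and at 119, 114 and 116 CPM with TAZ siRNA and vehicle, a log2 fold change of -0.63 (SE 0.05, adjusted p = 4.00e-06), without overlap. Under dDAVP it was at 174, 161 and 164 CPM with control siRNA and 108, 127 and 109 CPM with TAZ siRNA. All 13 collecting duct markers passed the filter on low counts, among them Aqp2, which lay at 0.337, 0.340 and 0.344 CPM with vehicle and 44.8, 29.3 and 30.0 CPM with dDAVP under control siRNA. With control siRNA dDAVP went with 7 of the 13 higher and 1 lower, Scnn1a, a sodium channel subunit, at -0.51. Of 12 markers of fibroblasts, endothelium and immune cells, 5 were at 0 throughout, and their summed level stayed between 8.29 and 11.0 CPM. Of 8 markers of other nephron segments, 3 were at 0 throughout, and their summed level was 179 to 189 CPM with control siRNA and vehicle, 152 to 169 CPM with control siRNA and dDAVP, 138 to 154 CPM with TAZ siRNA and vehicle, and 125 to 136 CPM with TAZ siRNA and dDAVP. Lrp2, the proximal endocytic receptor megalin, was called lower with dDAVP (-0.21 with control and -0.17 with TAZ siRNA) and with TAZ siRNA (-0.34 with vehicle and -0.30 with dDAVP). The part of these markers in the members' changes was not tested. In bulk libraries such as these, fewer cells of a type and less RNA per cell cannot be told apart.

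Ribosomes consist of a small subunit, which reads the mRNA, and a large subunit, which forms peptide bonds. Their proteins are made in near equal numbers from separate genes spread over the genome, and their mRNAs are short and abundant. In mammals these mRNAs typically begin with a cytidine followed by a run of pyrimidines, the 5′ terminal oligopyrimidine (TOP) motif, through which mTORC1 and LARP1 set their translation and stability. The present data measure mRNA levels and not translation.

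Start sites are shown first, because the TOP motif is the sequence feature that these mRNAs are best known to share. The lines are for some of the members called in at least 1 comparison, and other called members with a start window are not printed. Each line gives 15 bases before and 15 bases from the annotated start, read from RefSeq (GRCm38.p6, the assembly of mm10). Capitals mark the longest run of at least 5 pyrimidines that begins with C, where there is one.
Rpl13a (chr7:45128731-45128760, minus strand): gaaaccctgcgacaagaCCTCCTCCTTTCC
Rps2 (chr17:24720048-24720077, plus strand): aggcagtcgagatctcgcgCTTCTTggagc
Rpl12 (chr2:32961697-32961726, plus strand): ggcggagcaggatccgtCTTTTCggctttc
Rpl27a (chr7:109519180-109519209, plus strand): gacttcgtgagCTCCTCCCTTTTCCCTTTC
Rpl13 (chr8:123102335-123102364, plus strand): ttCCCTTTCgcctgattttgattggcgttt
Rpl11 (chr4:136053379-136053408, minus strand): ctgacccataaggccacggggccggaagtc
Rpsa (chr9:120127751-120127780, plus strand): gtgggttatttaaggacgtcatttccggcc
Rps6 (chr4:86857353-86857382, minus strand): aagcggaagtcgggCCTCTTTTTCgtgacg
Rps27l (chr9:66946071-66946100, plus strand): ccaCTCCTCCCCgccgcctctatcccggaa
Rpl9 (chr5:65391417-65391446, minus strand): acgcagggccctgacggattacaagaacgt
Rpl24 (chr16:55966260-55966289, plus strand): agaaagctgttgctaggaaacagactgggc

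In the lines for Rpl27a, Rps6 and Rpl13a a long run of C and T covers the start or begins just after it. Rpl11, Rpsa, Rpl9 and Rpl24 had no such run in these 30 bases. The windows rest on annotated starts, and the starts used in these cells were not measured. RefSeq promoter windows were matched for 60 members, with 71 windows in all, and for 58 members the start equalled that of the transcript with most counts. C followed by pyrimidines over the first 5 bases stood at 14 of the 71 starts (19.7%), and at 2.51% of all 32851 windows in the table. A run of 5 or more pyrimidines that begins with C, the rule behind the capitals, was found within the 30 bases around the start in 59.2% of member windows and 36.4% of all windows. A run of 8 or more pyrimidines within the 30 bases around the start was found in 40.8% of member windows and 12% of all windows. Over the 300 bases of a window, 250 before and 50 after the start and on both strands, CCGGAAG, a core recognised by ETS family factors, was present in 35.2% of member windows and 8.86% of all windows. AAGATGGC, a core bound by YY1, was present in 11.3% and 2.75%, and the E box CACGTG in 11.3% and 7.15%. GGAATG, a core bound by the TEAD factors with which TAZ acts, was present in 8.45% of member windows and 14.7% of all windows.

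The cAMP response element bears on dDAVP, because V2 receptors signal through cAMP. Its palindrome TGACGTCA stood in 5 of the 71 member windows (7.04%) and in 1.79% of all windows. The stem TGACG, which every palindrome also contains, stood in 45.1% and 20.8%. The 5 windows with the palindrome are shown with it in capitals and 10 bases on either side.
Rpl13 (chr8:123102316-123102343, plus strand): cgggttcgcgTGACGTCActtccctttc
Rps9 (chr7:3703974-3704001, plus strand): cggtgcgtgaTGACGTCActacaaggcg
Rpl18 (chr7:45717982-45718009, plus strand): cgcgctcatgTGACGTCAcccgtgcacc
Rpl27a (chr7:109519088-109519115, plus strand): ccgggagccgTGACGTCAggagcccttc
Rpl26 (chr11:68901422-68901449, plus strand): ctccgagggaTGACGTCAggacccctcg

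The palindrome began 24 bases before the start of Rpl13, 57 before that of Rps9, 79 before that of Rpl18, 97 before that of Rpl27a and 134 before that of Rpl26. With control siRNA, Rpl27a and Rpl13 were called higher with dDAVP, with log2 fold changes of 0.25 and 0.25. Rpl18, Rpl26 and Rps9 were not called, at 0.19, 0.18 and 0.17, and the median over all 80 members was 0.18. A match of letters is a description of the window and not a measured binding site.

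Levels are given per transcript length as the deposited FPKM values, with the mean and SD over the 12 libraries. The median member stood at 256.5 FPKM, against 10.4 FPKM for all tested protein-coding genes. The middle 50% of the members lay between 163 and 376 FPKM, a 2.30-fold range. 5 members were at or above 500 FPKM, 66 lay between 100 and 500 FPKM and 9 lay under 100 FPKM. The highest were Rpl8, a protein near the peptidyl transferase centre, at 706 ± 43.8 FPKM, and Rpl41, whose product is a very short peptide, at 672 ± 76.9 FPKM. Rps15 (576 ± 35.5 FPKM), Rpl7 (557 ± 32.2 FPKM) and Rps9 (548 ± 47.7 FPKM) came next, and each of these 5 lay within the joint SDs of its neighbours in this order.

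The lowest members included paralogues of other members. Rpl32l, a copy of Rpl32, was at 0.192 ± 0.0858 FPKM. Rpl7l1, Rps27l and Rpl22l1, paralogues of Rpl7, Rps27 and Rpl22, were at 34.2 ± 0.856, 38.8 ± 3.93 and 71.7 ± 5.86 FPKM, whereas their partners were at 557 ± 32.2, 271 ± 20.9 and 46.6 ± 1.91 FPKM. In the first 2 pairs the paralogue was the lower gene, and in the third Rpl22l1 was the higher one per length. In CPM Rpl22 was the higher, at 113.8, 103.8 and 108.6 against 36.6, 36.2 and 34.4 with control siRNA and vehicle. The transcripts with most counts are annotated at 2203 bases for Rpl22 and 486 bases for Rpl22l1, so their order per length rests on those models. Rps15a (24.5 ± 1.62 FPKM) and Rps20 (37.6 ± 2.69 FPKM) were among the 5 lowest per length and have the longest annotated transcripts of the set, 5136 and 3446 bases, so their FPKM rests on those models. In estimated counts they had 7673 and 7893 on average, well inside the range of the other members.

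**Figure D1:**
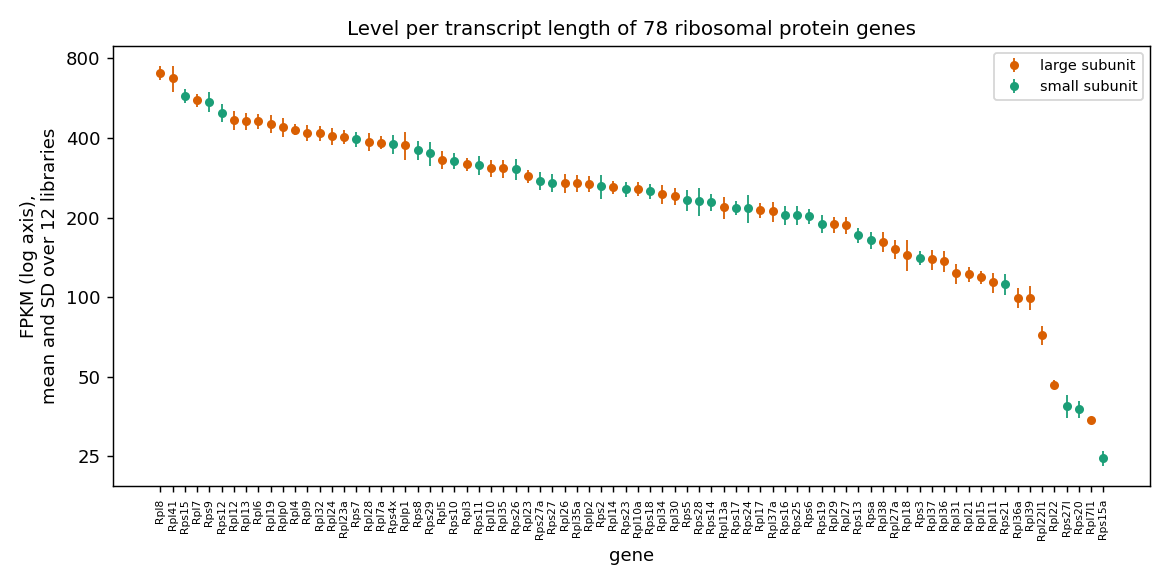
FPKM of 78 ribosomal protein genes on a log axis, in descending order, with points at the mean and bars for the SD over 12 libraries, coloured by subunit; Rpl32l at 0.192 FPKM and 1 gene not reported here are left out. Most genes lie between 100 and 500 FPKM, and Rps27l, Rps20, Rpl7l1 and Rps15a form the low end.

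The 80 genes held 1.79%, 1.68% and 1.86% of all counts in the control siRNA vehicle libraries and 1.93%, 2.06% and 1.98% in the control siRNA dDAVP libraries. With control siRNA every dDAVP library lay above every vehicle library. With TAZ siRNA the shares were 1.71%, 1.89% and 1.94% with vehicle and 2.00%, 1.80% and 1.95% with dDAVP, and these groups overlapped. The group means were 1.78% ± 0.0896 and 1.99% ± 0.0656 for control siRNA, and 1.84% ± 0.119 and 1.91% ± 0.105 for TAZ siRNA (SD, n = 3 each). Both subunits moved together: with control siRNA the large subunit genes went from 1.17% to 1.31% of counts and the small subunit genes from 0.603% to 0.678%.

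**Figure D2:**
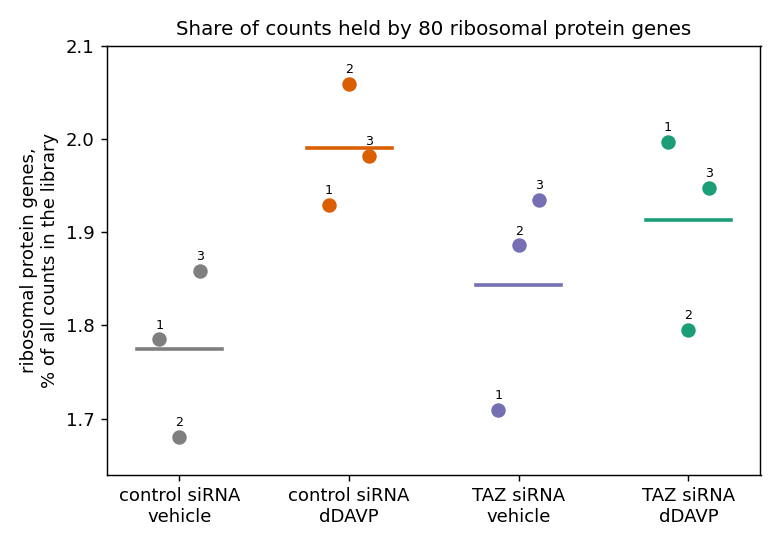
Percent of all counts in a library held by the 80 ribosomal protein genes, with 1 numbered point per library and a bar at the group mean; the axis does not start at 0. The 3 control siRNA dDAVP libraries sit between 1.93% and 2.06%, above the 3 control siRNA vehicle libraries at 1.68% to 1.86%, and the TAZ siRNA groups overlap.

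With control siRNA, dDAVP went with higher levels of ribosomal protein mRNAs, by small amounts. By edgeR's quasi-likelihood test, called at a Benjamini-Hochberg adjusted p under 0.05, 47 of the 80 genes rose and 0 fell, where 9.72% of all 15932 tested genes were called higher and 9.48% lower. All 80 fold changes were above 0, with a median of 0.18 on the log2 scale and a range from 0.03 (Rpl37a) to 0.35 (Rplp1). Rpl32l, at 0.12, is counted among these 80, though its change is not read as a response. The median over all tested genes was -0.0012. In 59 members the 3 dDAVP libraries all lay above the 3 vehicle libraries, which held for 17.3% of all genes. Called members numbered 32 of 49 in the large subunit (median 0.18) and 15 of 31 in the small subunit (median 0.18).

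The stalk of the large subunit recruits elongation factors and is built from Rplp0, Rplp1 and Rplp2. Rplp1 was at 164, 147 and 172 CPM with vehicle and 206, 207 and 205 CPM with dDAVP, without overlap. Its log2 fold change of 0.35 (SE 0.08, adjusted p = 0.00677) was the largest among the called members. Rplp0, the stalk base, was at 632, 584 and 656 CPM and then 728, 742 and 692 CPM. Rplp2 was at 124, 124 and 119 CPM and then 143, 139 and 141 CPM. Neither pair of groups overlapped, and the changes were 0.21 (adjusted p = 0.00573) and 0.21 (adjusted p = 0.0109).

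Other large subunit proteins showed the same direction. Rpl13a, which also serves in translational silencing outside the ribosome, was at 220.1, 195 and 238 CPM with vehicle and 268, 280.4 and 260.4 CPM with dDAVP. The dDAVP libraries were all higher, with a change of 0.31 (SE 0.07, adjusted p = 0.00401). Rpl12, which binds at the base of the stalk, was at 296, 269 and 306 CPM and 340.3, 359 and 339 CPM. Its change was 0.25 (adjusted p = 0.00321), close to those of Rpl27a (0.25, adjusted p = 0.00245) and Rpl13 (0.25, adjusted p = 0.00178), whose start windows are shown above.

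Rpl5 and Rpl11 form the 5S particle with 5S rRNA and can bind MDM2 when ribosome assembly fails. Rpl11 was at 119, 112 and 128 CPM with vehicle and 131, 148 and 145 CPM with dDAVP, and its change of 0.24 (SE 0.07, adjusted p = 0.0189) was called. That call was lost when control siRNA vehicle replicate 1 or 2 or control siRNA dDAVP replicate 2 or 3 was left out, with adjusted p from 0.0511 to 0.0908. Rpl5 was at 543, 512 and 555 CPM and 553, 596 and 583 CPM, where the groups overlapped, and its change of 0.11 was not called (adjusted p = 0.0677). DESeq2 called Rpl5, at an adjusted p of 0.0350. A fit of only the compared groups also called Rpl5 (adjusted p = 0.0437). So did the fits without control siRNA dDAVP replicate 1 (0.039) or control siRNA vehicle replicate 3 (0.048).

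In the small subunit, Rps2, which sits at the mRNA entry tunnel and whose pseudogenes hold 47.8% of the joint counts, was at 242, 229 and 259.8 CPM with vehicle and 288, 312 and 287 CPM with dDAVP. The groups did not overlap and the change was 0.28 (SE 0.05, adjusted p = 0.00158). Rpsa, also known as the laminin receptor, was at 316, 290.2 and 311 CPM and 347, 372 and 357 CPM, again without overlap, with a change of 0.23 (adjusted p = 0.00115). Rps6, the substrate of the S6 kinases downstream of mTORC1, was at 293, 279.8 and 308 CPM and 326, 342 and 334 CPM. Its change of 0.18 (SE 0.04, adjusted p = 0.00144) was called. Rps27a, made as a fusion with ubiquitin, changed by 0.24 (adjusted p = 0.00392), and Rps19, the gene most often mutated in Diamond-Blackfan anaemia, by 0.22 (adjusted p = 0.0131). The call of Rps19 was lost without control siRNA vehicle replicate 2, at an adjusted p of 0.0750.

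The paralogue pairs were uneven. Rpl22l1 was at 36.6, 36.2 and 34.4 CPM with vehicle and 40.5, 41.4 and 42.6 CPM with dDAVP and was called at 0.21 (adjusted p = 0.0456), a call that was lost under each of the 6 removals of a library. Rpl22 was at 114, 104 and 109 CPM and 109, 120.5 and 117 CPM, overlapped, and was not called (0.09, 95% interval -0.0010 to 0.18). Rpl7 changed by 0.16 (adjusted p = 0.0324), while Rpl7l1 stood at 0.04 with a 95% interval from -0.04 to 0.11. Rpl7 was not called once replicate 1 or 2 of control siRNA with vehicle was removed (adjusted p = 0.0850 and 0.126). The same held on removing replicate 2 or 3 of control siRNA with dDAVP (adjusted p = 0.171 and 0.0981). With library totals alone Rpl7 also missed the threshold (adjusted p = 0.0596). Rps27 and Rps27l stood at 0.18 and 0.19, and neither was called (adjusted p = 0.0983 and 0.0735). In a fit of only the compared groups both were called (adjusted p = 0.0026 and 0.0295). Rps27l was also called without control siRNA vehicle replicate 3 (adjusted p = 0.0436). No test compared the 2 genes of a pair. Among members whose relatives were under the count minimum, Rpl10 was called at 0.16 (adjusted p = 0.0227), and Rpl3 (0.10), Rpl39 (0.20) and Rps4x (0.09) were not called. Rpl39 was called in a fit of only the compared groups (adjusted p = 0.0038). Rpl10 was not called once replicate 1 or 2 of control siRNA with vehicle was removed (adjusted p = 0.0511 and 0.142). Removing replicate 2 of control siRNA with dDAVP had the same result (adjusted p = 0.137).

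**Figure D3:**
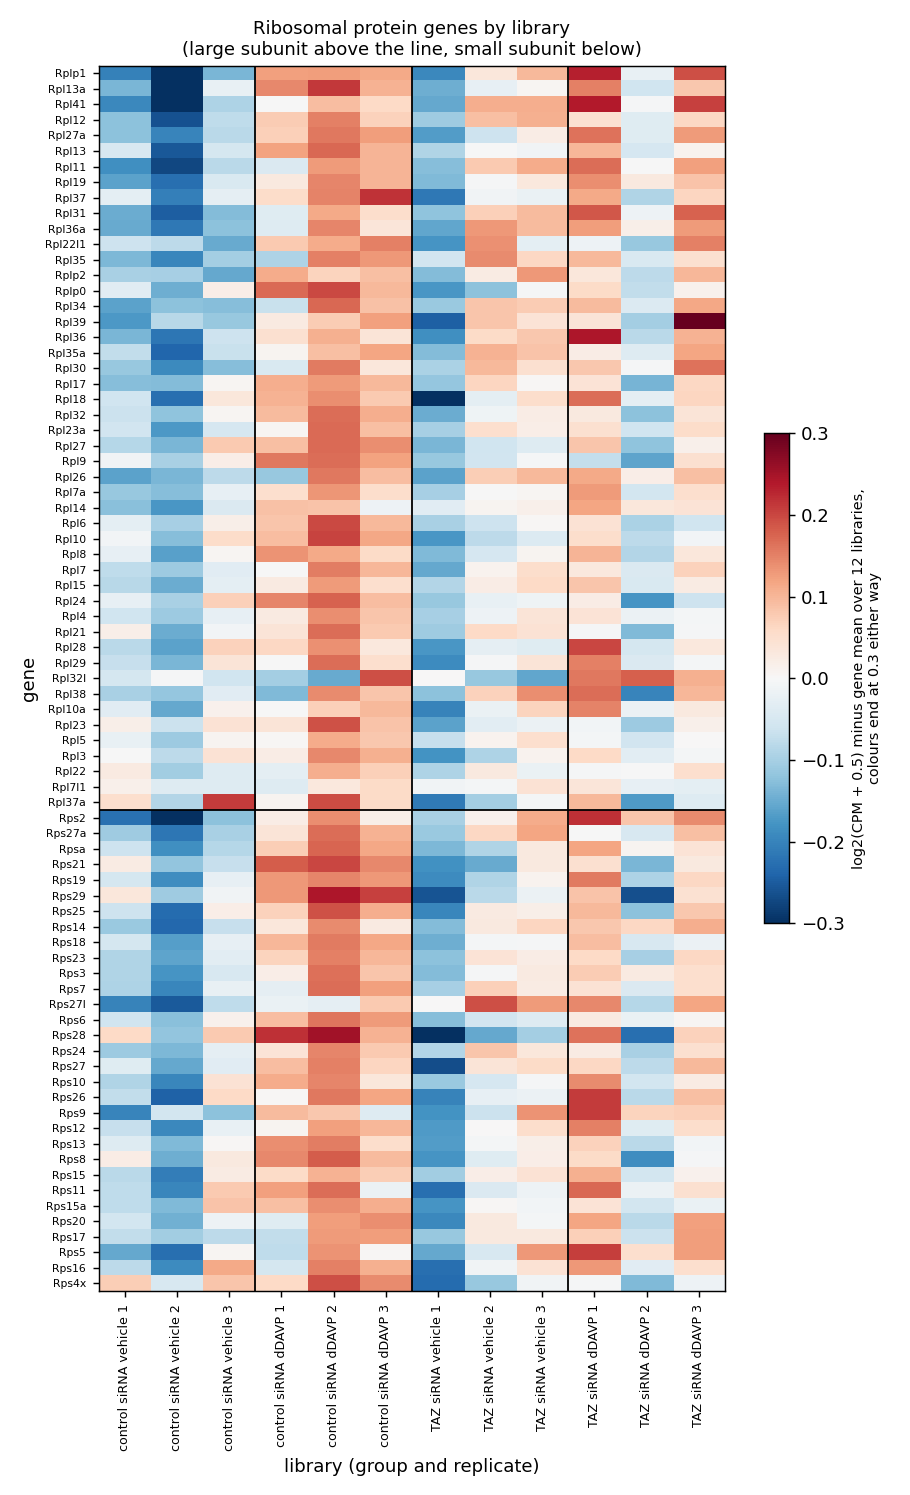
Relative level of 79 ribosomal protein genes in each library, with 1 gene not reported here left out, as log2(CPM + 0.5) minus the gene's mean over the 12 libraries, with genes ordered within each subunit by the dDAVP change under control siRNA. Most genes are low together in control siRNA vehicle 2 and TAZ siRNA vehicle 1 and high together in control siRNA dDAVP 2.

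The genes varied together from library to library, and the count of calls moved with single libraries. The median relative level of the members was -0.15 in control siRNA vehicle 2 and -0.14 in TAZ siRNA vehicle 1, and it was 0.15 in control siRNA dDAVP 2. Without control siRNA vehicle replicate 2 the test called 15 members, without control siRNA dDAVP replicate 2 it called 16, and without control siRNA vehicle replicate 1 it called 30. The other 3 removals left 34 to 55 calls, and the median change stayed between 0.14 and 0.21.

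Short mRNAs of other genes moved in the same way. Members had a median transcript length of 729.5 bases, against 3100 bases for the 12685 other tested protein-coding genes. With control siRNA and dDAVP the median log2 change of those other genes was 0.17 for transcripts up to 500 bases (67 genes), 0.12 from 500 to 1000 bases (615 genes), 0.07 from 1000 to 1500 bases (1131 genes) and -0.05 over 6000 bases (1760 genes). In the first 3 of these classes the members stood at 0.21 (15 genes), 0.18 (43 genes) and 0.18 (13 genes). Of 574 other genes whose longest transcript is at most 1000 bases, 115 were called higher and 2 lower, with a median of 0.12. By library, the median relative level of those short mRNAs was -0.13 in control siRNA vehicle 2 and 0.10 in control siRNA dDAVP 2, the same extremes as for the members. Whether this length trend arose in the cells or in the making of the libraries was not tested, and the same holds for the share of the members' change that goes with it.

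When an offset for transcript length, an alternative chosen after the data were seen, was fitted in each library on the other genes, 23 members were called higher and 0 lower, 22 of them among the 47, and the median change was 0.08. Rpl13a (0.23, adjusted p = 0.000635), Rplp1 (0.23, adjusted p = 0.000707), Rpsa (0.21, adjusted p = 0.000157) and Rps2 (0.20, adjusted p = 0.000414) were the largest with this offset. Rplp2, Rps19, Rpl22l1, Rpl7 and Rpl10 were no longer called. The share of all genes called with this offset is not given, here or for the other comparisons. Counts of members called with it therefore have no background beside them. Across the 80 members, the change and the log2 length had Pearson r = -0.26 and Spearman rho = -0.26, and the change and the mean FPKM had r = 0.19 and rho = 0.0013. These 2 correlations run across genes that share the same libraries and are descriptions.

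**Figure D4:**
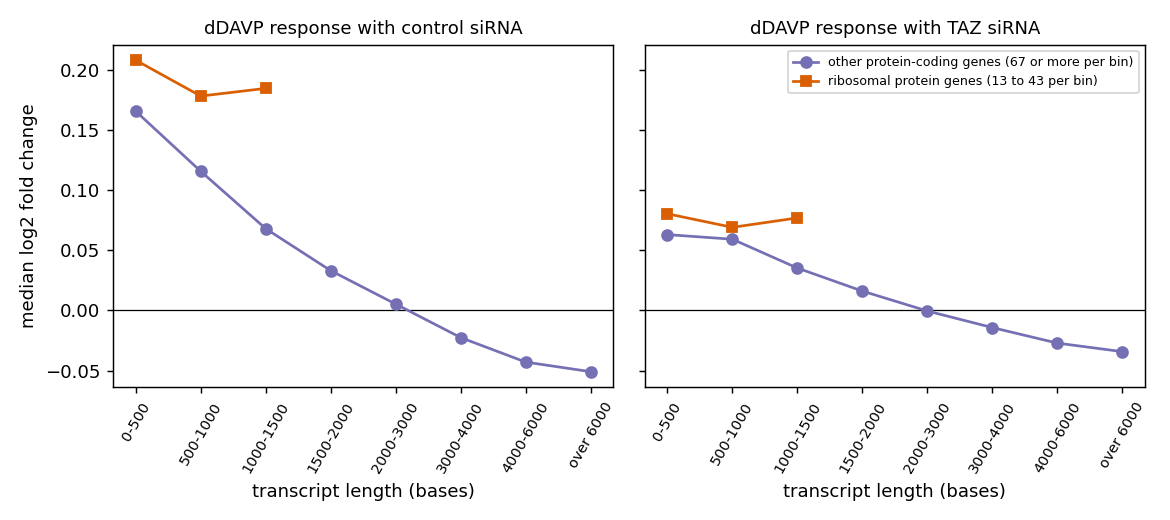
Median log2 fold change with dDAVP by transcript length in bases, for ribosomal protein genes (squares, classes with 13 or more genes) and for other tested protein-coding genes (circles), with control siRNA on the left and TAZ siRNA on the right. Medians of other genes fall with length in both panels, from 0.17 to -0.05 on the left, and the ribosomal protein genes lie above them in the 3 classes shown.

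With TAZ siRNA, no ribosomal protein gene passed the test for dDAVP. By edgeR 0 of 80 were called, where 6.38% of all genes were called higher and 4.41% lower; 10 members (12.5%) had an unadjusted p under 0.05, against 23.9% of all genes, and DESeq2 called 1 and limma-voom 0. The median change was 0.07 (-0.0009 over all genes), and 70 of the 80 fold changes were above 0. Rpl32l, at 1.09, is counted among these 70, though its change is not read as a response. Rpl32l aside, in 3 members, Rpl14 and Rps6 among them, the dDAVP libraries all lay above the vehicle libraries, which held for 13.7% of all genes. Rplp1 was at 166, 194 and 203 CPM with vehicle and 223, 186 and 217 CPM with dDAVP. The groups overlapped, and the change was 0.16 (95% interval -0.01 to 0.33, adjusted p = 0.256).

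Rpl27a had the lowest adjusted p of the named stalk and large subunit genes here, at 0.0721, with 163, 176 and 186 CPM and then 205, 178 and 200.3 CPM. Rps6 was at 279.7, 294 and 298 CPM with vehicle and 311, 301 and 306 CPM with dDAVP. The groups did not overlap, and the change of 0.08 was not called (adjusted p = 0.210). Rpl12 was at 299.7, 344 and 347 CPM with vehicle and 333, 315 and 337 CPM with dDAVP, with TAZ siRNA vehicle 1 the lowest library, and its change was -0.01. Leaving out TAZ siRNA vehicle replicate 3 gave 5 calls, all higher, and leaving out TAZ siRNA dDAVP replicate 2 gave 3. With the length offset 3 members were called, Rpl27a (0.11) and Rpsa (0.11) higher and Rpl35 (-0.11) lower, and the median was 0.0059.

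The response to dDAVP was then compared between the siRNAs directly. The difference, the response with TAZ siRNA minus that with control siRNA, was called for 0 of the 80 genes by edgeR, by DESeq2 and by limma-voom, where edgeR called 0.0314% of all genes. An unadjusted p under 0.05 was reached by 21 members (26.2%), against 8.13% of all genes. The difference was below 0 in 74 of 80 members, with a median of -0.11. Over all 15932 tested genes it was below 0 in 7864, with a median of 0.0019. Members varied together by library, so the 74 are not separate observations. The lowest members were Rpl12 at -0.26 (95% interval -0.42 to -0.10, adjusted p = 0.320), Rps27a at -0.26 (-0.42 to -0.09) and Rps27l at -0.23 (-0.44 to -0.03). For Rplp1 the interval ran from -0.44 to 0.05 and for Rps6 from -0.22 to 0.0011. The other short mRNAs had a median difference of -0.07, and 403 of 574 were below 0. With the length offset Rpl12 was called, at -0.23 (adjusted p = 0.0444). The calls in 1 siRNA group and their absence in the other therefore do not amount to a tested difference for single genes.

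**Figure D5:**
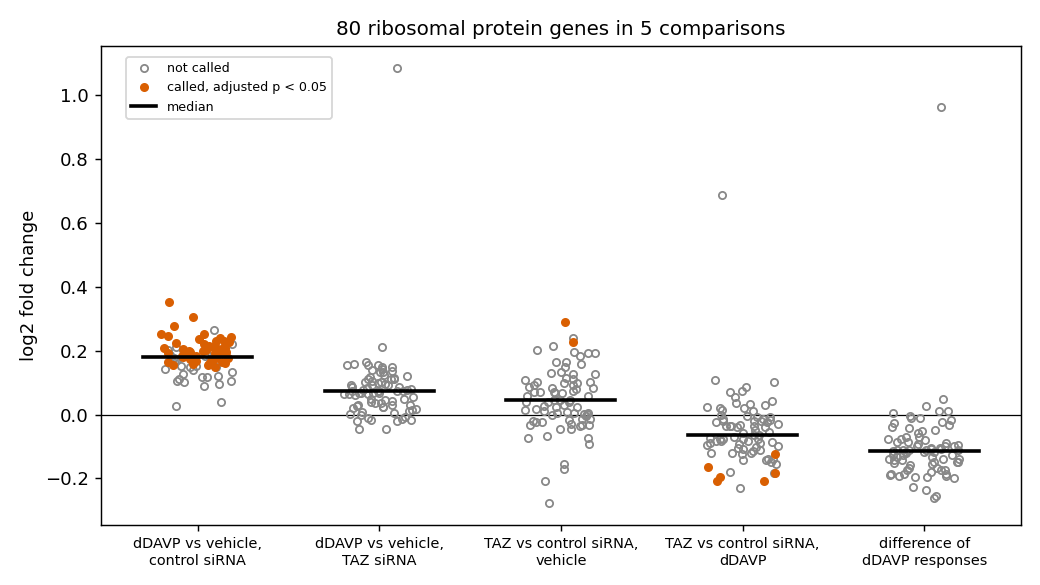
Log2 fold changes of the 80 ribosomal protein genes in the 5 comparisons, with filled points for genes called at adjusted p under 0.05 and a bar at the median. The 47 called genes with dDAVP under control siRNA are all above 0, the 6 called genes with TAZ siRNA under dDAVP are all below 0, and the single point near 1.09 is Rpl32l, which met the count minimum through dDAVP libraries.

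Without dDAVP, 2 members rose with TAZ siRNA. Rps27l, a paralogue of Rps27 that is known as a p53 target, was at 19.0, 18.3 and 20.7 CPM with control siRNA and 21.9, 25.1 and 23.9 CPM with TAZ siRNA. The groups did not overlap, and the change was 0.29 (SE 0.07, adjusted p = 0.0199). Rps2 was at 242, 229 and 259.8 CPM and 265, 286 and 306 CPM, without overlap, with a change of 0.23 (SE 0.05, adjusted p = 0.0202). These 2 of 80 members were 2.5%, a share under the 3.19% of all genes called higher, and 3.11% of all genes were called lower. The median over the members was 0.04. Both calls were lost without TAZ siRNA vehicle replicate 2 or 3 or control siRNA vehicle replicate 1 or 2. Removing TAZ siRNA vehicle replicate 1, the library with the low members, gave 16 calls, all higher. DESeq2 called 9 members, 8 higher and 1 lower.

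In 7 members (8.75%) the TAZ siRNA vehicle libraries all lay above the control libraries, a share under the 11.9% of all genes for which this held. Those were Rpl14, Rpl30, Rpl31, Rpl34, Rpl35, Rps2 and Rps27l. The length offset gave 8 members higher and 6 lower, with a median of 0.0089, without a share of all genes to set beside them. Rps28 (-0.29), Rpl37a (-0.23) and Rps4x (-0.19) were among the lower ones, and Rps27l (0.22), Rps2 (0.20) and Rpl11 (0.18) among the higher ones.

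Under dDAVP, TAZ siRNA went with lower levels of 6 members (7.5%) and higher levels of none, where 4.97% of all genes were called lower and 5.77% higher. The share of lower calls was thus near that over all genes. The median over the members was -0.07, with 64 of 80 below 0, and the median over all genes was 0.0025. The other short mRNAs stood at a median of -0.02, with 6 called higher and 20 lower of 574. In 21 members (26.2%) the 3 TAZ siRNA libraries all lay below the 3 control libraries, which held for 13.8% of all genes, and in 0 members all above (15.1% of all genes). Of the 13 collecting duct markers, 4 were called lower here and 1 higher, and 10 lay wholly below the control libraries; their part in the members' change was not tested. This comparison shares its control siRNA dDAVP libraries with the first one, in which those libraries were the higher group.

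Rpl24, a large subunit protein at the bridge between the subunits, was at 331, 338 and 319 CPM with control siRNA and 304, 265 and 287 CPM with TAZ siRNA. All TAZ siRNA libraries were lower, with a change of -0.21 (SE 0.05, adjusted p = 0.0104). Rpl9 was at 366, 369 and 357 CPM and 313, 294 and 339.7 CPM, and TAZ siRNA dDAVP 2 was its lowest library. Its change was -0.21 (SE 0.05, adjusted p = 0.00615), the lowest adjusted p of the 6. Neither start window, shown above, held a run of at least 5 pyrimidines that begins with C. Of the other called members, Rps4x also lacked one, whereas Rps6, Rps21 and Rpl6 had such a run.

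Rps21 was at 54.1, 54.9 and 52.8 CPM with control siRNA and 49.4, 43.4 and 48.7 CPM with TAZ siRNA, a change of -0.19 (adjusted p = 0.0465). Rps4x, the X-linked copy of Rps4, was at 424, 465 and 449 CPM and 406, 371 and 402 CPM, a change of -0.18 (adjusted p = 0.0357). For Rpl6 the values were 664, 719.9 and 671 CPM and 646, 588 and 601 CPM, a change of -0.16 (adjusted p = 0.0189). Rps6 went from 326, 342 and 334 CPM to 311, 301 and 306 CPM, the smallest of the 6 called changes at -0.12 (adjusted p = 0.0353). In each of these 4 genes the groups did not overlap. Among removals of 1 library, Rps21 kept its call only without TAZ siRNA dDAVP replicate 1, and Rps6 only without control siRNA dDAVP replicate 1. Rps4x lost its call without replicate 2 or 3 of either group. Rpl6 lost its call without TAZ siRNA dDAVP replicate 2 or 3 or control siRNA dDAVP replicate 2. With library totals alone Rps21, Rps4x and Rps6 were not called, and limma-voom did not call Rps21. The number called was 2 without TAZ siRNA dDAVP replicate 2, without TAZ siRNA dDAVP replicate 3 or without control siRNA dDAVP replicate 2. It was 28, all lower, with the length offset, led by Rps29 (-0.28), Rps21 (-0.24) and Rpl24 (-0.24). That count has no share of all genes beside it.

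Genes that serve the ribosome were compared in the same way, from lists by function, to be read against the 9.72% of all genes called higher and 9.48% called lower with dDAVP under control siRNA. Of 5 tested ribosomal protein genes whose names lie outside the rule, 3 rose with dDAVP under control siRNA, Rpl36al (0.21, adjusted p = 0.0141) and Rps3a1 (0.12, adjusted p = 0.0371) among them, with a median over the 5 of 0.18. Of 20 elongation factors and other known TOP mRNAs, 7 rose and 0 fell (median 0.11), led by the elongation factor 1 subunits Eef1b2 (0.18), Eef1d (0.18) and Eef1g (0.17). Of 29 initiation factors 10 rose and 0 fell (median 0.06), led by Eif3i (0.24), the helicase Eif4a1 (0.20) and Eif5a (0.19).

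Of 49 ribosome biogenesis genes 12 rose and 1 fell (median 0.09), with Ltv1, a small subunit export factor, at 0.25, the H/ACA protein Nhp2 at 0.23 and Tsr1 at 0.20. RNA polymerase I and rDNA genes, which make the rRNA, had 1 of 15 called, Polr1d at 0.21, with a median of 0.01. Among 16 chaperones and importers of ribosomal proteins 2 rose and 2 fell, 12.5% each and near the shares over all genes. Tsr2, which escorts Rps26, fell by 0.22 on the log2 scale, Ipo9 stood at -0.13, and Naca rose by 0.13. Naca, Nap1l1 and Btf3 are also in the list of elongation and TOP factors, so their calls count in both lists. In the list of TOP and mTORC1 control genes 4 of 21 rose and 1 fell. Sesn2, an amino acid sensor that restrains mTORC1, rose by 0.62 (adjusted p = 2.47e-07), Eif4ebp1 by 0.24 and Larp1, the TOP mRNA binding protein, by 0.23 (adjusted p = 4.44e-05).

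With TAZ siRNA, where dDAVP went with 6.38% of all genes higher and 4.41% lower, there were 0 calls of 5 among the ribosomal proteins outside the rule and 0 of 29 among the initiation factors, with 1 and 7 genes at an unadjusted p under 0.05 by edgeR. These 2 zero counts were not run with another tool. Elongation and TOP factors had 1 higher (Eef1a1, 0.14) and 1 lower (Hnrnpa1, -0.09), and biogenesis genes had Nhp2 higher (0.22) and Dkc1 lower (-0.18). Sesn2 (0.54) and Larp1 (0.17) rose here too. In the same control list of 21 genes, TAZ siRNA with vehicle, where 3.19% of all genes were called higher and 3.11% lower, went with lower Ddit4 (-0.26) and higher Tsc2 (0.12), both restrainers of mTORC1, and under dDAVP Ddit4 was at -0.17, Tsc2 at 0.18 and Deptor at 0.21, all called. Comparing TAZ with control siRNA under dDAVP, where 4.97% of all genes were called lower and 5.77% higher, 4 of 20 elongation and TOP factors fell, Npm1 (-0.18), Hnrnpa1 (-0.15) and Eif4b (-0.11) the most, and 6 of 29 initiation factors (20.7%) fell, led by Eif2b1 (-0.18), Eif2s2 (-0.17) and Eif5b (-0.17). Neither list had a gene that rose. Rps3a1 fell by 0.16 on the log2 scale. Rpf2 (-0.21) and Ncl (-0.14) fell and Tcof1 rose (0.13) among the 49 biogenesis genes, shares under those of all genes, and Sdad1 (-0.13), Heatr3 (-0.12) and Nap1l1 (-0.11) fell among the 16 chaperones and importers (18.8%).

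Processed pseudogenes nearly identical to their parents can take reads from a ribosomal protein gene or give reads to it. Annotated pseudogenes were present for 53 members. In 28 of these they held under 1% of the joint counts, and in 6 they held over 10%: Rps2 (47.8%), Rpsa (47.5%), Rpl3 (34.4%), Rps26 (32.7%), Rps18 (25.9%) and Rpl15 (10.1%). The values of these 6 are uncertain in level. When pseudogene counts were added to their parents, the same 47 members were called with dDAVP under control siRNA. Of 98 tested pseudogene rows 6 were called higher (6.12%, against 9.72% of all genes) and 0 lower (against 9.48%) in that comparison, with a median of 0.12.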

How the data were processed

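The deposited gene and transcript tables hold, per the file headers, read counts and FPKM on mm10. The counts behave as estimated counts that the authors rounded up per transcript and summed per gene, and FPKM are the authors' values scaled by transcript length and library size; transcript lengths are also deposited. The submitters' processing notes name Bowtie 0.12.2, mm8 and mm10 without a role; no counting tool is named. The labels' protocols name TruSeq kits, 1 of them stranded. The 24 TPM columns were left aside. Counts were tested with edgeR 4.0.16 (R 4.3.3): TMM factors, filterByExpr with a minimum count of 10, a robust quasi-likelihood fit with 1 mean per group over 12 libraries, and Benjamini-Hochberg adjustment over 15932 genes. SE is the log2 fold change over the square root of F. CPM use TMM-scaled totals.

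Alternatives were DESeq2 1.42.0, limma-voom 3.58.1, other scalings, filters, sample sets, a replicate block, single libraries left out, added pseudogene counts and a length offset (lowess, span 0.3). Members and gene lists were chosen with earlier results of these data known, and the motifs other than the start rule, and the length offset, after values were seen. Named were chosen members of known role and paralogue pairs, up to 8 called members per comparison with the largest change, the 5 highest and lowest in FPKM, those at the count minimum, and up to 3 called genes per other list. Other genes and windows, such as those with the palindrome, were chosen after their values were seen. Values of 2 genes are not reported here. The method was tested on simulated counts.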

Additional observations from a re-analysis of the deposited data

How the results depend on the processing

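With dDAVP under control siRNA, the 10 other settings called 23 to 65 members, all higher, and the median stayed above 0; the length offset, added after seeing the data, gave 23 calls and a median of 0.0815. Leaving out single libraries gave 15 to 55 calls. With dDAVP under TAZ siRNA the calls numbered 1 by DESeq2, 3 with the length offset and 0 to 5 without single libraries. TAZ siRNA with vehicle gave 9 calls by DESeq2, 14 with the length offset and 0 to 16 without single libraries. TAZ siRNA with dDAVP gave 12 calls by DESeq2, 3 with library totals alone, 10 with no filter on low counts, 13 with only the compared groups, 28 with the length offset and 2 to 9 without single libraries, all lower. For the difference of the responses the length offset gave 1 call, and the removals of single libraries gave 0. Removals leave fewer samples; the causes of the other shifts were not tested. For single named members, 448 values stayed on their side of the threshold, 56 lost a call, 8 gained one and 0 changed sign. The replicate numbers went with at most a weak pairing of the samples. Over 18 same-numbered pairs the correlation of deviations ran from -0.043 to 0.080, and 7 of 12 libraries correlated best with their own number. Between groups other than TAZ siRNA with dDAVP, every same-numbered pair was above 0, from 0.011 to 0.080. A fit with the replicate block gave 49, 0, 2, 7 and 0 calls in the 5 comparisons. On simulated counts 38.2% of 68 genes changed by 1.2-fold were called among 15932; most members changed by less than that, and smaller changes were not simulated.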

Other observations

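The mitochondrial ribosome, whose proteins are also encoded in the nucleus, was examined beside the cytosolic one. With dDAVP under control siRNA, of its 78 genes 16 rose and 1 fell, where 9.72% of all genes were called higher, and the median was 0.10. Mrps6 rose the most (0.56, adjusted p = 2.17e-07), with 22.2, 23.3 and 24.2 CPM for vehicle and 33.5, 35.7 and 33.5 CPM for dDAVP, and Mrps28 (0.48) and Mrps18b (0.35) followed. With TAZ siRNA 3 of 78 rose with dDAVP (3.85%, against 6.38% of all genes), Mrps6 again (0.43), Mrpl54 (0.20) and Mrpl38 (0.15). TAZ siRNA with vehicle gave 2 higher (2.56%, against 3.19% of all genes), Mrpl33 (0.23) and Mrps10 (0.19), and TAZ siRNA with dDAVP gave 0 by edgeR, with 6 at an unadjusted p under 0.05; no other tool was run on that list.

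MYC and its partners drive ribosomal protein genes in many cells. In this list Mlxip rose with dDAVP under control siRNA (0.30), as did Mlx (0.16), and Mycn fell by 0.22 on the log2 scale. These were the only 3 of 13 called, 15.4% higher and 7.69% lower, where 9.72% of all genes were called higher and 9.48% lower. With TAZ siRNA Mlxip (0.30) and Myc (0.16) rose with dDAVP and 0 fell, where 6.38% of all genes were called higher and 4.41% lower. With TAZ siRNA against control siRNA, 3 of 13 fell and 1 rose with vehicle, and 4 fell and 1 rose with dDAVP, where 3.11% and 4.97% of all genes were called lower and 3.19% and 5.77% higher. Mycl fell (-0.33 with vehicle and -0.34 with dDAVP), and so did Mxi1 (-0.28 and -0.27) and Mycn (-0.26 and -0.19), whereas Mxd4, a repressor that competes for the MYC partner MAX, rose (0.25 and 0.33). Mlx was called lower with dDAVP (-0.18) and stood at -0.11 with vehicle. In the list of ribosome stress and p53 genes, Zmat3 (0.18) and Mdm2 (0.14), both p53 targets, were the 2 of 10 called higher with TAZ siRNA and vehicle, where 3.19% of all genes were called higher. Rps27l was called in the same comparison, and Cdkn1a, the best known p53 target of the list, stood at 0.0028 (adjusted p = 0.979). Zmat3 and Mdm2 were also called higher with dDAVP under control siRNA, at 0.20 and 0.12, beside Cdkn2a at 0.16, while Cdkn1a stood at 0.03 (adjusted p = 0.562). Those were 3 of 10 higher and 0 lower, where 9.72% of all genes were called higher and 9.48% lower.

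Rpl11 has a pair of annotated transcripts whose estimates differed between libraries. Transcript NM_025919 was at 65.9, 64.2 and 66.4 CPM in the control siRNA vehicle libraries and at 83.2, 129.9 and 93.3 CPM with dDAVP. XM_006539112 was at 53.3, 47.8 and 61.6 CPM and then at 48.0, 18.1 and 51.9 CPM. With TAZ siRNA and dDAVP, replicate 2 again stood apart, with 114 CPM of the first and 21.0 CPM of the second. Among the 19 members with more than 1 transcript at or above 10% of counts, 0 of 42 transcripts had a share that was higher, or lower, in every dDAVP library with both siRNAs.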
